A study of Mus musculus with 27 samples.

Results

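The 41 genes described here are mouse genes known to be induced by type I interferon. They were taken by gene symbol and sorted by role into 9 sensors of viral nucleic acid, 4 transcription factors and 28 effectors. Of these, 40 were among the 20446 genes of the count table, and the remaining gene, Mx1, was not analysed here. The test could be run on 39 of the 40. Oasl1, an oligoadenylate synthetase relative, did not pass the filter on low counts, and its largest count in any library was 9.

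The cells were C2C12, an established line of mouse myoblasts that fuse into myotubes when serum is lowered. All groups had growth medium with 10% FBS, then 2% horse serum to differentiate, then a pulse of 50% horse serum lasting 2 h. Such a pulse sets the circadian clocks of cultured cells to a common phase. Libraries of total RNA, with ribosomal RNA depleted, were made at 12, 18, 24, 30, 36, 42, 48, 54 and 60 h after the pulse, with 3 libraries at each time point. A culture without the pulse and a time point before 12 h were not analysed here. The comparison therefore asks how the level of these genes moved between 12 and 60 h after the pulse, and how fast in each role.

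Depth ran from 15.2 to 26.6 M counts over the 27 libraries, with a median of 20.9 M, and 12687 genes were tested. Whether the 3 libraries of a time point are 3 separate cultures is not stated, so a p-value here speaks of library-to-library spread, part or all of it possibly technical. The cultures had the markers of the labelled cell type: all 24 myotube markers were tested, with a summed level of 25063 to 25865 CPM (reads of a gene scaled to the size of its library) at 60 h and 24540 to 24797 CPM at 12 h. Of 16 immune cell markers only 4 had enough reads to test, and Tyrobp, Cd3e, Nkg7 and Siglech had 0 reads in all 27 libraries. The summed level of the 16 was 6.77 to 8.55 CPM at 60 h and 8.03 to 9.93 CPM at 12 h, most of it Cd14, at a mean of 5.84 CPM. In bulk RNA, fewer cells that use a gene and less of its RNA per cell cannot be told apart.

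Type I interferons bind a receptor of the chains Ifnar1 and Ifnar2, whose kinases Jak1 and Tyk2 phosphorylate STAT proteins. Stat2 joins Irf9 in a complex called ISGF3, which binds the interferon-stimulated response element in the promoters of target genes. The targets include the sensors and transcription factors of the pathway itself and a large set of antiviral effectors. In muscle they are best known from the inflammatory muscle disease dermatomyositis, where their products are abundant in muscle fibres.

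The promoter sequences show the element in question, and where it was absent from the window searched. A window of 250 bases before and 50 bases after the start, from RefSeq on build GRCm38.p6, was found for 31 of the 41 genes. The core of the element, GAAA and then any 2 bases and GAAA again, was searched on both strands, counting matches that overlap each other. At least 1 match lay in the windows of 15 of the 31 genes (48.4%), against 1079 of 27025 genes with a window (3.99%). By role these were 4 of 6 sensors, 1 of 4 transcription factors (Stat2) and 10 of 21 effectors. A match is a description of the letters, not a shown binding site. The stretches of 100 bases below are from genes whose levels are given further on, 5′ to 3′ on the strand of the gene, with matches on either strand in capitals. They are Ifit1 (chr19:34640759-34640858, plus strand), Ifit3 (chr19:34583362-34583461, plus), Ifit2 (chr19:34550594-34550693, plus), Isg15 (chr4:156200830-156200929, minus), Irf7 (chr7:141266425-141266524, minus) and Stat2 (chr10:128270248-128270347, plus).
Ifit1: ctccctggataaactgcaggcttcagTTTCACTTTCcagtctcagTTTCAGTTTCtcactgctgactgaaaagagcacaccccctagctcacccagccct
Ifit3: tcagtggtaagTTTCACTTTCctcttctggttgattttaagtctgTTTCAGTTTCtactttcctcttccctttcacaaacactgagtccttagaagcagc
Ifit2: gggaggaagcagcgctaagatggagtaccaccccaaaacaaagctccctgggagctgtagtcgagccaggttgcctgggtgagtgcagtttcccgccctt
Isg15: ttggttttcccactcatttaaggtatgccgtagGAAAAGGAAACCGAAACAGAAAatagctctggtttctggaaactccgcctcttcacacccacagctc
Irf7: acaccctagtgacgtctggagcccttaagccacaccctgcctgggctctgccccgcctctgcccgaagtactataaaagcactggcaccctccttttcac
Stat2: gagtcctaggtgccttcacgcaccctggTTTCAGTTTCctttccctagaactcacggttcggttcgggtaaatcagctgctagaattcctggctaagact
Ifit1 and Ifit3 each held 2 matches, Isg15 held 3 that overlap, Stat2 held 1, and neither Ifit2 nor Irf7 held any in their windows. The same 100 bases stood before Ifit3b (chr19:34607758-34607857, plus), with 100 of 100 letters identical to those of Ifit3.

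Nearly all of these genes fell between 12 and 60 h. Lower levels at 60 h than at 12 h were called for 36 of the 39 tested genes, with an adjusted p under 0.05 over all genes in edgeR's quasi-likelihood test, and higher levels for 0 (also 0 at an unadjusted p under 0.05). Over all genes tested, 6.56% were called lower and 9.5% higher. The 39 were chosen with earlier results of these data known, so the choice may have favoured genes that fall. The median log2 change of the 39 was -1.69, against -0.01 over all genes tested. Single genes ranged from -4.74 (Oas1a, with only 4, 1 and 2 counts in the 60 h libraries) to -0.01 (Irf1). In a fit without the 12 h libraries 37 of the genes passed the filter. By their counts Oas1a and Cmpk2 did not, so their high level at 12 h let them be tested. Cmpk2 had 18, 20 and 21 counts at 12 h and 2, 5 and 5 at 60 h. All 3 libraries at 60 h lay below all 3 libraries at 12 h for 38 of the 39, a pattern that 15.5% of all genes tested had. The 3 genes not called were Irf1, Stat2 and Rsad2, of which Stat2 was called with the replicate number as a block. The test for any change over time was positive for 36 of the 39, against 18.5% of all genes tested.

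**Figure D1:**
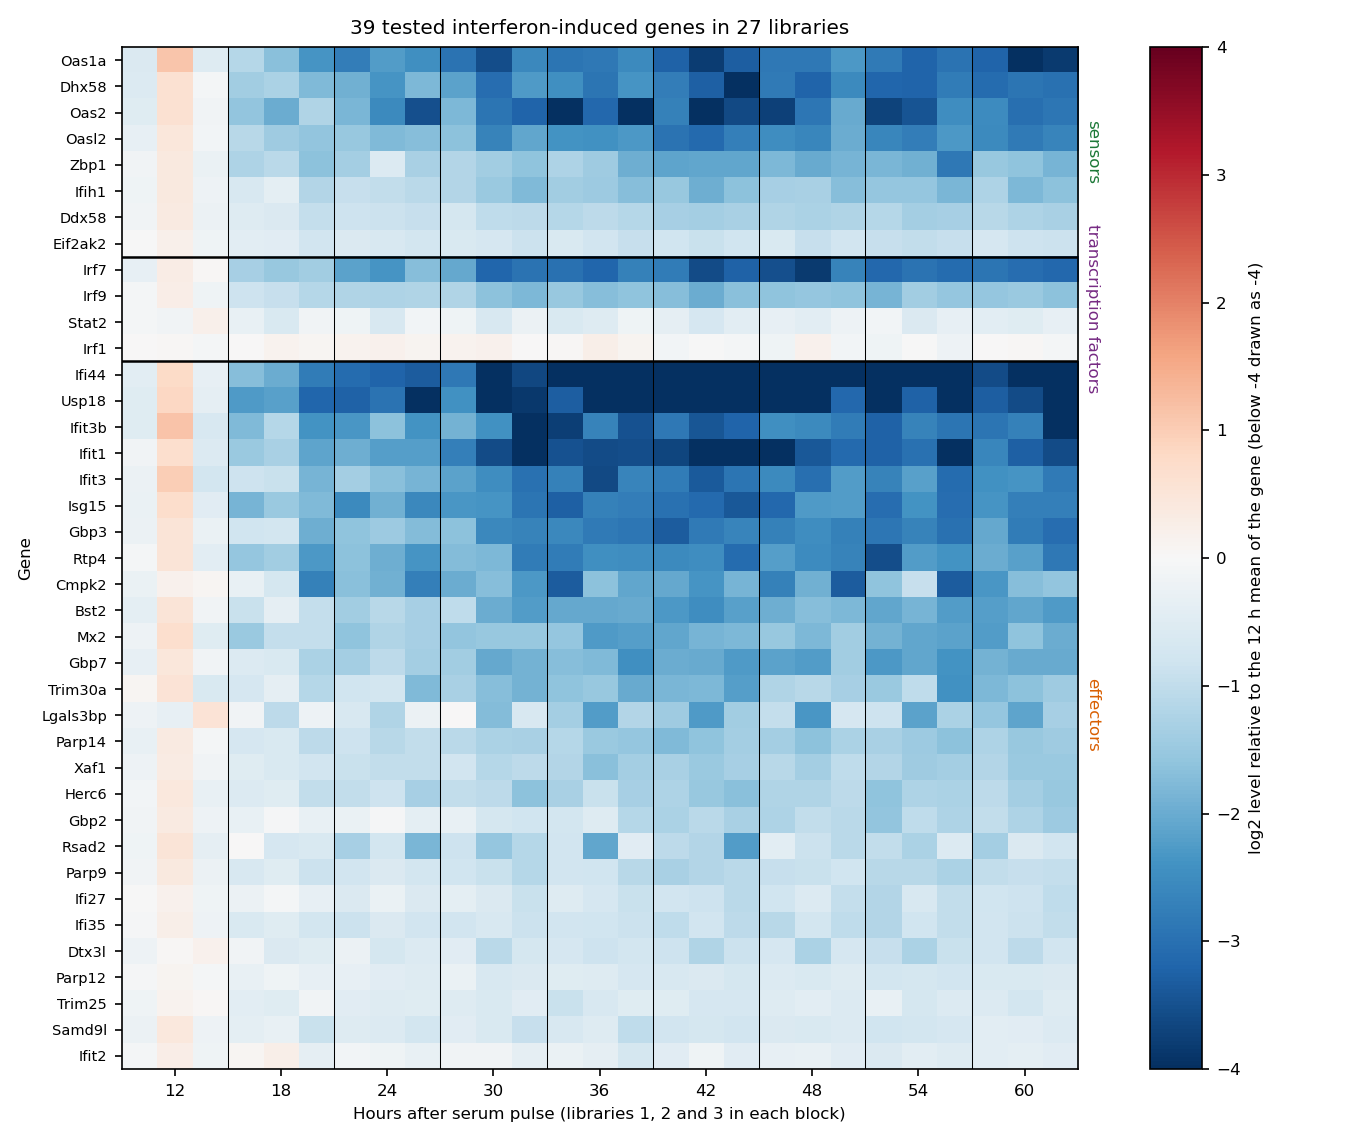
Log2 level of the 39 tested genes (rows, grouped by role and ordered by their change) in 27 libraries (columns, 3 at each time point from 12 to 60 h), relative to each gene's own mean at 12 h. Blue is lower: 36 of the 39 rows were called lower at 60 h than at 12 h, while Irf1 stayed near white, with a change of -0.01.

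The sensors fell together. All 8 tested were lower at 60 h than at 12 h, with a median log2 change of -2.22 and a range of -4.74 to -0.79. The -4.74 was that of Oas1a, which would not pass the filter without the 12 h libraries. Dhx58 (ENSMUSG00000017830, chr11:100694884-100704271, minus strand) encodes LGP2, an RNA helicase related to RIG-I. It had 0.715, 0.802 and 0.757 CPM in the 60 h libraries, against 4.56, 10.3 and 6.40 CPM in the 12 h libraries. The groups lay far apart, and library 2 of 12 h was the highest of all. Its mean of 7.07 CPM at 12 h was followed by 2.39 CPM (18 h), 1.60 CPM (24 h), 1.06 CPM (36 h) and 0.603 CPM (42 h). The log2 change at 60 h against 12 h was -3.20 ± 0.31 (SE; edgeR adjusted p = 5.49e-08).

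Oasl2 (ENSMUSG00000029561, chr5:114896936-114912234, plus strand), a member of the oligoadenylate synthetase family, had 4.87, 4.01 and 4.63 CPM in the 60 h libraries, against 23.1, 40.2 and 26.8 CPM in the 12 h libraries. Again no library of 60 h reached the level of any at 12 h. The log2 change was -2.74 ± 0.22 (SE; edgeR adjusted p = 5.45e-09). Zbp1 (ENSMUSG00000027514, chr2:173206612-173218923, minus strand), which binds nucleic acid in the Z form and can start necroptosis, had 3.01, 2.81 and 2.32 CPM at 60 h, against 7.87, 11.5 and 7.32 CPM at 12 h. Its log2 change was -1.71 ± 0.24 (SE; edgeR adjusted p = 1.53e-05). Its mean was already 3.51 CPM at 18 h, and 60 h against 18 h was not called (-0.38 ± 0.26).

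Eif2ak2 (ENSMUSG00000024079, chr17:78852564-78882573, minus strand) encodes PKR, the kinase that stops translation when it binds double-stranded RNA, and it moved least among the sensors. It had 49.7, 45.0 and 44.0 CPM at 60 h, against 77.9, 90.9 and 70.8 CPM at 12 h. The groups still did not overlap, and the log2 change was -0.79 ± 0.10 (SE; edgeR adjusted p = 5.78e-06). Ddx58, which encodes RIG-I, and Ifih1, which encodes MDA5, are the helicases that report viral RNA to the adaptor Mavs. Ddx58 changed by -1.24 ± 0.13 and Ifih1 by -1.58 ± 0.20 on the log2 scale. Oas1a and Oas2 make the second messenger that activates RNase L, and both were low at all times. Oas1a averaged 0.107 ± 0.077 CPM at 60 h and 2.95 ± 2.18 CPM at 12 h (SD, n = 3 each), and Oas2 averaged 0.296 ± 0.075 CPM at 60 h and 2.74 ± 1.16 CPM at 12 h (SD, n = 3 each). The spread of Oas1a at 12 h came from library 2, with 5.47 CPM, against 1.64 and 1.74 CPM in the other libraries. Oas1a shares 57.6% of its 50-base words with the neighbouring gene Oas1g, so its own level is uncertain.

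Of the 4 transcription factors, Irf7 and Irf9 fell, while Irf1 was not called and the call of Stat2 depended on the fit. Irf7 (ENSMUSG00000025498, chr7:141262706-141266481, minus strand) drives the interferon alpha genes once interferon has induced it. It had 1.67, 1.52 and 1.43 CPM at 60 h, against 10.5, 16.3 and 13.7 CPM at 12 h. The groups were separated by a wide gap, and all 3 libraries of each later time point were below the lowest of 12 h. Its mean of 13.5 CPM at 12 h was followed by 4.92 CPM (18 h), 3.16 CPM (24 h), 2.04 CPM (30 h) and 1.65 CPM (36 h), and from 42 to 60 h it lay between 1.31 and 1.54 CPM. The log2 change was -3.13 ± 0.26 (SE; edgeR adjusted p = 8.13e-09). It overlaps the antisense gene Phrf1 by 45 exon bases, and whether reads were counted by strand is not given in the sources used here.

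Irf9 (ENSMUSG00000002325, chr14:55603571-55610030, plus strand), the subunit of ISGF3 that binds DNA, had 18.0, 18.6 and 16.6 CPM at 60 h, against 49.2, 63.0 and 46.1 CPM at 12 h. Every library at 60 h was under 12 h, and the log2 change was -1.57 ± 0.14 (SE; edgeR adjusted p = 1.5e-08). Its annotation shares 123 exon bases with Rnf31 on the same strand.

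Stat2 (ENSMUSG00000040033, chr10:128270559-128292849, plus strand), the STAT subunit of ISGF3 that carries its main activation domain, had 33.5, 31.7 and 36.0 CPM at 60 h, against 42.6, 41.0 and 51.4 CPM at 12 h. The groups did not overlap, but the change of -0.42 ± 0.16 missed the threshold (SE; edgeR adjusted p = 0.0807). Library 2 was the lowest of the 3 at 8 of the 9 time points, and with the replicate number as a block the change was called (-0.41, edgeR adjusted p = 0.00124). Irf1 (ENSMUSG00000018899, chr11:53770014-53778374, plus strand), a factor that interferon gamma and NF-kB also induce, had 66.5, 68.9 and 62.3 CPM at 60 h, against 67.8, 68.1 and 63.4 CPM at 12 h. These libraries overlapped, and the log2 change was -0.01 ± 0.08 (SE; edgeR adjusted p = 0.956). Its time point means ran between 61.1 CPM at 54 h and 73.7 CPM at 24 h.

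**Figure D2:**
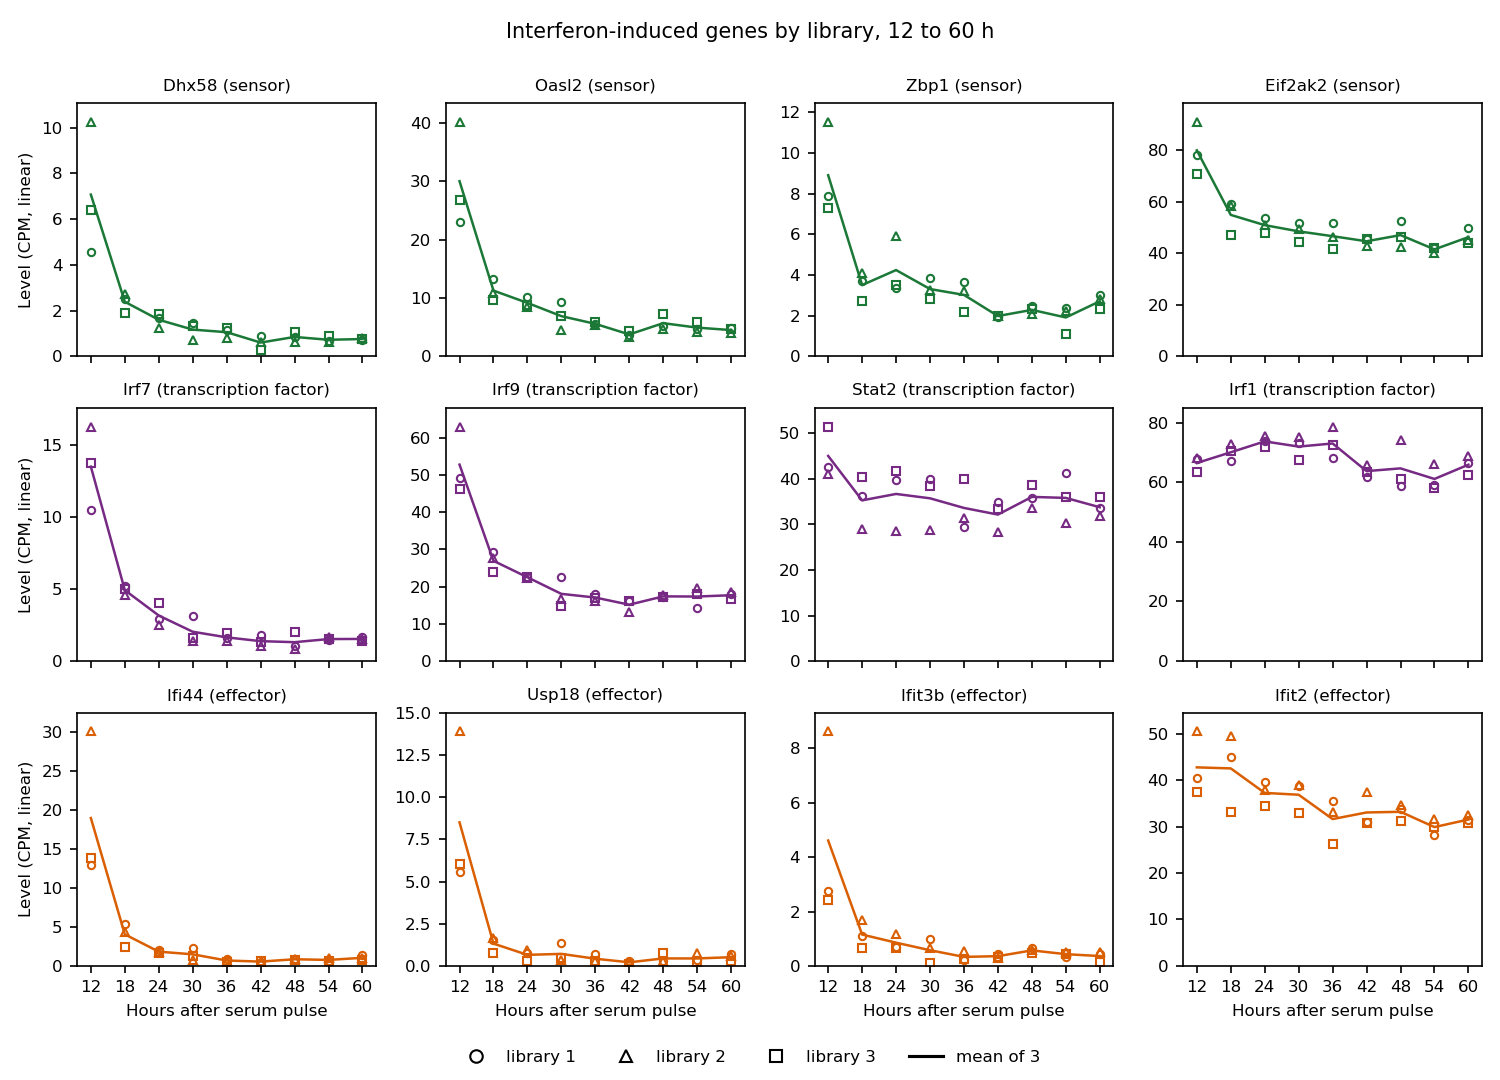
Level in CPM (linear axis, from 0) of 12 genes at 9 time points, with a point for each library and a line through the mean of 3; sensors, transcription factors and effectors are in the upper, middle and lower row. In most panels the steepest part lies between 12 and 18 h, with library 2 of 12 h highest, while Irf1 ran between means of 61.1 and 73.7 CPM without a fall.

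The effectors fell in 26 of 27 cases, with a median log2 change of -1.69 and a range of -4.19 to -0.44. The largest falls were those of Ifi44, Usp18 and Ifit3b among genes with a mean of at least 1 CPM. Ifi44 (ENSMUSG00000028037, chr3:151730922-151749960, minus strand), a cytoplasmic protein with antiviral activity, had 1.38, 0.962 and 0.757 CPM at 60 h, against 12.9, 30.1 and 13.8 CPM at 12 h. Its lowest library at 12 h was thus well above its highest at 60 h. At 18 h it had 5.32, 4.39 and 2.42 CPM, and at 42 h 0.544, 0.466 and 0.638 CPM. The log2 change at 60 h against 12 h was -4.19 ± 0.35 (SE; edgeR adjusted p = 6.17e-09).

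Usp18 (ENSMUSG00000030107, chr6:121245906-121270917, plus strand) removes Isg15 from proteins and damps the interferon receptor. It had 0.715, 0.561 and 0.267 CPM at 60 h, against 5.57, 13.9 and 6.05 CPM at 12 h. Its mean at 18 h was 1.32 CPM, 15.5% of that at 12 h, the lowest share at 18 h among the 40 genes. The log2 change at 60 h against 12 h was -4.03 ± 0.49 (SE; edgeR adjusted p = 1.96e-06). Isg15, the ubiquitin-like protein itself, had 3.15, 2.40 and 2.41 CPM at 60 h, against 13.9, 27.2 and 12.0 CPM at 12 h. Its log2 change was -2.74 ± 0.28. Of the ubiquitin and Isg15 ligases in the group, Herc6 changed by -1.33 ± 0.20, Trim30a by -1.83 ± 0.34 and Trim25, which ubiquitinates RIG-I, by -0.60 ± 0.11.

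The Ifit genes lie side by side on chromosome 19 and encode proteins that bind viral RNA. They differed in size of change within 1 cluster. Ifit3b (ENSMUSG00000062488, chr19:34607970-34613401, plus strand) had 0.429, 0.521 and 0.134 CPM at 60 h, against 2.77, 8.63 and 2.44 CPM at 12 h. Its log2 change was -3.62 ± 0.53 (SE; edgeR adjusted p = 2.49e-05). Ifit1 had 4.10, 2.57 and 2.05 CPM at 60 h, against 22.8, 40.6 and 17.4 CPM at 12 h, a log2 change of -3.22 ± 0.35. Ifit3 changed by -2.76 ± 0.38. Ifit3 and Ifit3b share 51.2% and 45.0% of their 50-base words, so their separate levels are uncertain. Ifit2 (ENSMUSG00000045932, chr19:34550694-34576419, plus strand) moved least of all effectors, with 31.3, 32.6 and 30.7 CPM at 60 h, against 40.4, 50.5 and 37.4 CPM at 12 h. Its mean at 18 h, 42.5 CPM, was that of 12 h (42.8 CPM). The groups did not overlap at 60 h, and the log2 change was -0.44 ± 0.13 (SE; edgeR adjusted p = 0.0257). This call was lost without library 2 of 12 h (-0.31, edgeR adjusted p = 0.181) and without any 1 of the 60 h libraries (edgeR adjusted p between 0.0516 and 0.0803). In the promoter stretches above, Ifit1, Ifit3 and Ifit3b each held 2 cores, and the window of Ifit2 held none. The window of Irf7 also held none, and Irf7 changed by -3.13. Stat2 held 1 core and missed the threshold without the replicate block. Whether cores and the size of a change are linked was not tested.

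Among the GTPases that restrict viruses and intracellular pathogens, Gbp2 changed by -1.23 ± 0.18, Gbp3 by -2.66 ± 0.31, Gbp7 by -2.03 ± 0.24 and Mx2 by -2.07 ± 0.26 on the log2 scale. Mx2 is annotated as a polymorphic pseudogene. The ADP-ribosylation group changed less, from -1.42 ± 0.16 for Parp14 to -0.60 ± 0.08 for Parp12. Parp9 (-0.99 ± 0.13) and its partner Dtx3l (-0.86 ± 0.17) share 458 exon bases on opposite strands. All 8 of these genes were called lower.

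The other effectors ran from Ifi44 down to Samd9l (-0.49 ± 0.16), a restriction factor of poxviruses in mammals. Bst2, which tethers virus particles to the membrane, changed by -2.24 ± 0.25, Rtp4 by -2.38 ± 0.32, Xaf1 by -1.40 ± 0.14 and Ifi35 by -0.88 ± 0.12. Lgals3bp, a secreted glycoprotein, changed by -1.69 ± 0.44 and Cmpk2, a mitochondrial nucleotide kinase, by -2.26 ± 0.62. Cmpk2 and Rsad2 are neighbours on chromosome 12 and both were near the lower end of what was tested. Rsad2, or viperin, had 0.238, 0.481 and 0.401 CPM at 60 h, against 0.663, 1.13 and 0.566 CPM at 12 h. Its groups did not overlap, but its change of -1.02 ± 0.41 was not called (SE; edgeR adjusted p = 0.104). Ifi27, a mitochondrial membrane protein, had the highest level per length at both ends, with 63.1 CPM per kb at 60 h and 117 CPM per kb at 12 h. Its log2 change was -0.89 ± 0.15. The untested sensor Oasl1 averaged 0.235 ± 0.129 CPM at 60 h and 0.343 ± 0.131 CPM at 12 h (SD, n = 3 each).

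The fall was early. Over 12 to 36 h the slope was downward for 37 of the 39 genes (8.45% of all genes tested), the exceptions being Irf1 and Stat2, and its median was -1.53 on the log2 scale per 24 h. Over 36 to 60 h no gene was called in either direction by edgeR, and none downward by DESeq2 or limma-voom. In edgeR 1 had an unadjusted p under 0.05, downward. Over 36 to 60 h 0.465% of all genes tested were called downward and 0.607% upward, and the median slope of the 39 was 0.01. The difference between the slopes was itself called for 28 of the 39 (3.22% of all genes tested), in each case with the later slope above the earlier one. For Irf7 the slope was -2.91 ± 0.24 over 12 to 36 h and -0.03 ± 0.28 over 36 to 60 h (difference 2.88 ± 0.44, edgeR adjusted p = 9.07e-05). For Ifi44 it was -4.39 ± 0.33 and then 0.67 ± 0.43. The difference was not called for Gbp2 (0.44 ± 0.27), whose slopes were -0.80 ± 0.16 and -0.36 ± 0.17. In the same fit, the slope over 18 to 36 h was downward for 20 of the 39 (2.59% of all genes tested).

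**Figure D3:**
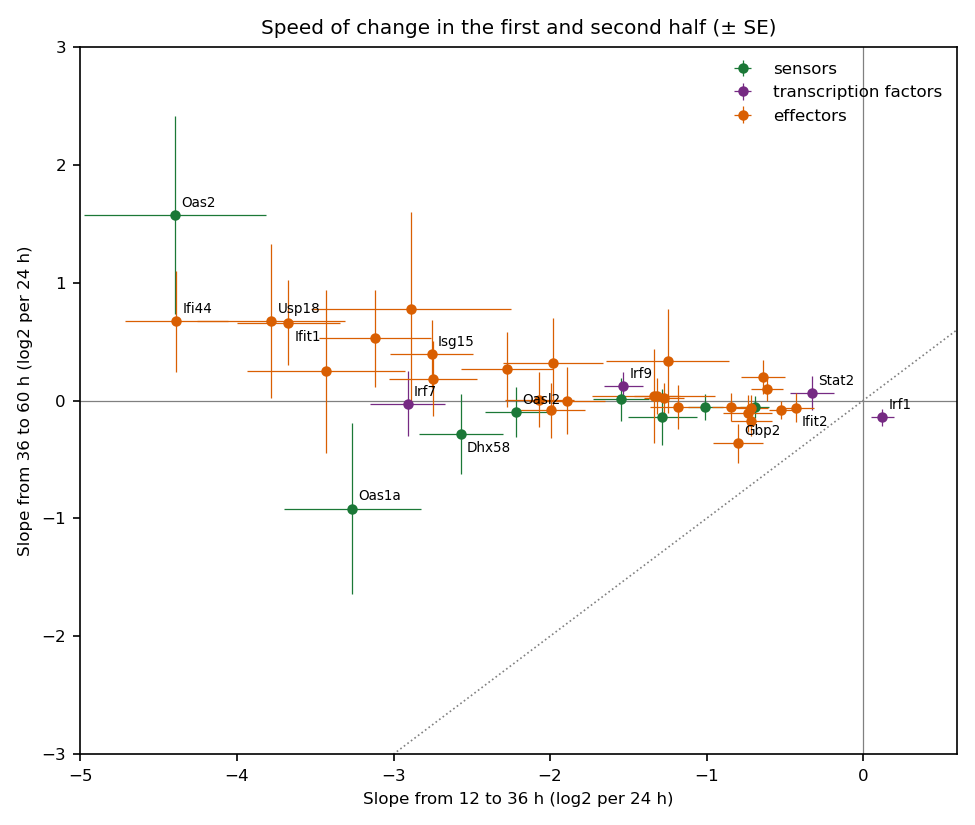
Slope from 12 to 36 h (horizontal) against slope from 36 to 60 h (vertical), both as log2 change per 24 h, for the 39 tested genes, with bars of ± 1 SE and the dotted line marking equal slopes. The points spread to the left along the horizontal axis, from -4.40 to 0.12, and lie around 0 on the vertical axis, with a median of 0.01.

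Between 12 and 36 h the first 6 h held the clearest change. At 18 h against 12 h, 26 of the 39 genes were called lower (2.29% of all genes tested), with a median log2 change of -0.79. None was called in the other 7 steps of 6 h by edgeR, where between 0 and 6 genes had an unadjusted p under 0.05 in the lower direction and up to 3, at 48 h against 42 h, in the higher. In those 7 steps, in order of time, 0.883%, 0.11%, 0.0552%, 0.236%, 0.0788%, 0.118% and 0.0236% of all genes tested were called lower. The step to 18 h included all 8 sensors, 2 of 4 transcription factors (Irf7 and Irf9) and 16 of 27 effectors. Without library 2 of 12 h it was called for 17 of the 39.

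The fall went on after 18 h for many of them. At 60 h against 18 h, 19 of the 39 were called lower (2.88% of all genes tested), and 14 were called in both stretches. These 14 were Dhx58, Ddx58, Ifih1, Oasl2, Oas1a, Irf7, Irf9, Ifi44, Ifit1, Ifit3, Gbp3, Gbp7, Xaf1 and Parp14. Another 12 were called by 18 h and not after it, among them Usp18, Isg15, Zbp1, Rtp4 and Eif2ak2. For Isg15 the change was -1.80 ± 0.27 by 18 h and -0.94 ± 0.30 from 18 to 60 h (edgeR adjusted p = 0.0547). A further 5, all effectors, were called after 18 h only: Ifit2, Gbp2, Bst2, Ifi27 and Parp12. Gbp2 changed by -0.23 ± 0.18 by 18 h and by -1.003 ± 0.18 from 18 to 60 h. The remaining 8 were called in neither stretch. Whether the early and the late genes differ from each other was not tested.

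The time taken to fall to 50% of the 12 h mean describes the speed on the linear scale. By 18 h 17 of the 40 genes had reached it and by 24 h 25 had, 24 of them among the 39 tested. Of all genes tested, 0.583% stood at or under 50% of their 12 h mean at 18 h and 1.17% at 24 h. The median gene stood at 57.3% of its 12 h level at 18 h. The median was 45.7% (24 h), 33.7% (36 h), 26.04% (42 h) and 32.3% (60 h) after that. At 18 h the 9 sensors, with the untested Oasl1 among them, stood at a median of 39.4%, transcription factors at 64.7% and effectors at 59.1%. This order did not hold at all later times. The medians of sensors and effectors were 47.7% and 43.8% (24 h), 33.9% and 33.4% (36 h), 17.2% and 28.9% (42 h), and 30.4% and 31.2% (60 h). Those of transcription factors ran from 50.1% to 62.1% at these times. The 9 genes that never reached 50% were Ifit2, Irf1, Stat2, Ifi35, Ifi27, Parp12, Trim25, Eif2ak2 and Samd9l. The lowest mean came at 42 h for 21 of the 39 tested genes and at 54 h for 11. At 60 h against 42 h no gene was called by edgeR (1 had an unadjusted p under 0.05, higher). Of all genes tested, 0.142% were called higher and 0.0709% lower there. The fitted change was above 0 for 36 of the 39, with a median of 0.15, against -0.0023 over all genes tested. Since 42 h held the lowest mean of 21 of them, later values above it are partly built in.

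Between roles the order depended on where the oligoadenylate synthetases were placed. With them among the sensors, the median slope over 12 to 36 h was -1.88 per 24 h for sensors, -0.93 for transcription factors and -1.34 for effectors. Counted as effectors instead, they left the sensors at -1.28 and brought the effectors to -1.94. With only genes of a mean of at least 1 CPM, the sensors' median change at 60 h against 12 h was -1.64, against -2.22 with all 8. That limit also removed the effectors Rsad2, Trim30a and Cmpk2. The effector median under it is not given here, so the -1.64 is not to be set against the median of all effectors. The transcription factors covered the range from -2.91 (Irf7) to 0.12 (Irf1), so their median of 4 genes describes neither. Over 36 to 60 h the medians were -0.08 for sensors, 0.02 for transcription factors and 0.04 for effectors. Genes of a role are not replicates, and the roles were not tested against each other.

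**Figure D4:**
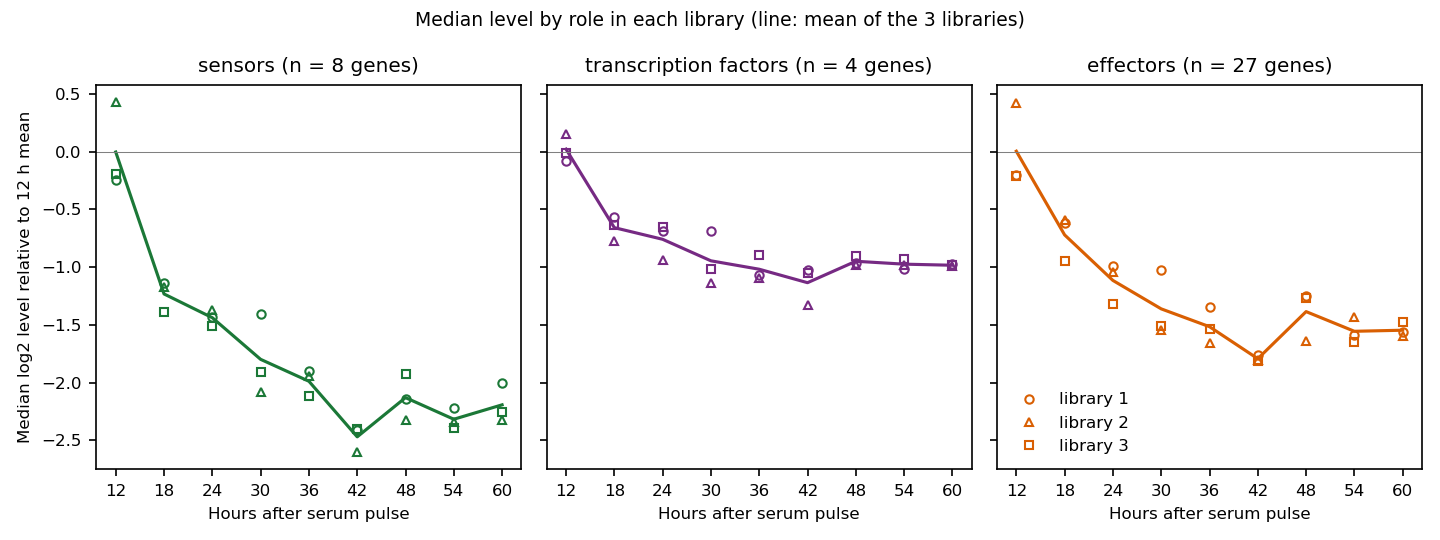
Median log2 level, relative to each gene's 12 h mean, of 8 sensors, 4 transcription factors and 27 effectors in each library at 9 time points, with a line through the mean of 3 libraries. At 60 h the library medians were -2.32 to -2.005 for sensors, -0.99 to -0.98 for transcription factors and -1.60 to -1.48 for effectors, while the 12 h libraries scatter around 0 with library 2 highest.

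The genes also moved together between libraries of 1 time point. At 12 h library 2 was the highest of the 3 for 36 of the 39 genes (40% of all genes tested), and its median level was 0.40 above the 12 h means on the log2 scale, against -0.20 and -0.19 for libraries 1 and 3. At 30 h library 1 was the highest for 32 of the 39 (26.9% of all genes tested). Across the 27 libraries, deviations of a gene from its time point mean correlated with those of the other members at a median Pearson r of 0.61 (range -0.24 to 0.86), and at 0.53 without the 12 h libraries. This is a description over libraries that share their RNA and depth, and no matching r was computed for other genes. The lowest was Stat2, with r = -0.24. Between the same-numbered libraries of 60 and 12 h the median log2 change was -1.36, -1.90 and -1.47 for numbers 1, 2 and 3. The direction did not rest on library 2 of 12 h: 36 of 39 genes were called lower in the full set, and between 33 and 36 when any 1 of the 27 libraries was left out. The replicate number itself was called for 23 of the 39, against 66.1% of all genes tested. It was largest for Lgals3bp, at -0.91 on the log2 scale for libraries 2 against 1.

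A rhythm of 24 h was called for none of the 39 by edgeR or limma-voom, with 12 at an unadjusted p under 0.05 in edgeR, and for 0.0552% of all genes tested. The linear trend in the same model was downward for 35 of the 39 (8.72% of all genes tested), with a median of -1.68 per 48 h. In a fit without the 12 h libraries it was downward for 23 of the 37 genes that could then be tested.

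Upstream of these genes, interferon RNA itself was hardly detectable. None of 21 interferon ligand genes had enough reads to test, and 16 of them, Ifnb1 included, had 0 reads in all 27 libraries. A count of 0 in every library allows up to 0.00522 CPM per gene over all libraries together (3 counts, counting error only). The largest count of a ligand gene in any library was 4 (Ifnz), and the 21 genes summed to between 0 and 5 counts per library.

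Of the receptor and signalling genes between ligand and targets, 2 are given here. Stat3, which serves many cytokines, changed by 0.19 ± 0.06 (SE; edgeR adjusted p = 0.0227). Ifnar1 averaged 94.7 ± 2.17 CPM at 60 h and 100 ± 3.29 CPM at 12 h (SD, n = 3 each), and its change of -0.09 ± 0.06 was not called.

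Of 14 receptors, adaptors, kinases and factors that sense nucleic acid or other microbial products or carry that signal, 0 were called by edgeR, DESeq2 or limma-voom, with 1 lower and 2 higher at an unadjusted p under 0.05. Irf3, a factor this signal activates, changed by -0.21 ± 0.09, Tlr2 by 0.28 ± 0.13 and Tmem173, which encodes STING, by 0.32 ± 0.14. Usp18, which damps the interferon receptor and was called lower, was counted among the effectors and not among the feedback inhibitors that follow. Of 14 feedback inhibitors, 0 were called lower and 3 higher: Socs2 (0.36 ± 0.09), Irf2bp2 (0.37 ± 0.10) and Socs3 (0.28 ± 0.09), the SOCS proteins being inhibitors of cytokine receptors. The count of 3 became 0 without library 2 of 12 h or library 3 of 60 h, and 1 without library 1 of either time point. Of 15 NF-kB targets, 2 were called lower and 1 higher, Cxcl1 at -1.05 ± 0.29, Traf1 at -0.96 ± 0.30 and Il6 at 0.58 ± 0.20. These calls were not stable: with single libraries left out, 0 to 2 were called lower, with 0 lacking library 2 of 12 h, and 0 to 1 higher. Vcam1, next by p, changed by -0.15 ± 0.09 and was not called. The median change of that list was 0.01. Over all genes tested, 6.56% were called lower at 60 h than at 12 h and 9.5% higher.

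Part of a list of other genes known to be induced by interferon moved in the same direction. This list too was chosen with earlier results of these data known. Of 46 tested, 23 were called lower at 60 h than at 12 h and 0 higher (0 at an unadjusted p under 0.05). The median log2 change was -0.51, with a range of -4.91 to 0.45. By their counts Oas3 and Oas1b would not pass the filter without the 12 h libraries, so their high level there let them be tested. Oas3 had 21, 21 and 30 counts at 12 h and 1, 1 and 0 at 60 h. Oas1b had 28, 24 and 23 counts at 12 h and 2, 4 and 5 at 60 h. Among the smallest p-values were those of Irgm2, an immunity-related GTPase, at -1.78 ± 0.17, and Ddx60, a helicase, at -2.52 ± 0.27. Of 22 tested genes of MHC class I antigen presentation, which interferon also induces, 7 were called lower and 2 higher (Calr and Pdia3), with a median of -0.29. The lower count was 4 to 8 with single libraries left out, with 4 lacking library 2 of 12 h or library 3 of 60 h, and the higher count was 1 to 2, with 1 lacking library 3 of 12 h or library 1 of 60 h. Tap1, a subunit of the peptide transporter, averaged 1.48 ± 0.078 CPM at 60 h and 4.96 ± 0.709 CPM at 12 h (SD, n = 3 each), a log2 change of -1.74 ± 0.16. H2-K1 changed by -0.59 ± 0.13 and Tapbp by -0.29 ± 0.07. Of the 4 tested immune cell markers and the 2 tested endothelial markers, 0 were called by edgeR, DESeq2 or limma-voom (0 at an unadjusted p under 0.05). Of the 24 myotube markers, 5 were called lower and 5 higher, Mymx at -1.31 ± 0.09, Myog at -0.82 ± 0.07 and Myh1 at 0.62 ± 0.07 among them. The lower count was 3 without library 1 or 2 of 12 h or library 1 or 3 of 60 h. Their part in the result was not tested. Of all genes tested, 6.56% were called lower at 60 h than at 12 h and 9.5% higher. The 2 of 22 antigen presentation genes called higher stand near that share.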

How the data were processed

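The deposited file is a table of raw counts, made by the authors from 27 libraries and not normalized. The submitters' processing notes name Trim Galore 0.4.0, cutadapt 1.9.1, featureCounts and the build mm10. The aligner, the annotation and the strand setting of the counting are not given. GENCODE M21 on mm10 gave a symbol to 20318 of 20446 IDs.

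Genes passed edgeR's filterByExpr (minimum count 10); 7759 did not. Counts were scaled by TMM (factors 0.979 to 1.03), also for CPM. The biological coefficient of variation was 11.8%. Time point was a factor in edgeR's quasi-likelihood F tests, and p-values were adjusted over all tested genes (Benjamini-Hochberg, threshold 0.05). Slopes are linear contrasts of 5 time points. Rhythm and trend came from a model of linear time with cosine and sine of 24 h. Fits were tested on simulated data.

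The genes, roles and lists were chosen with earlier results of these data known. Full values were given by rule for the 3 largest changes and the smallest change of each role among genes of at least 1 CPM; other genes named with library values were chosen after their values were seen. The first 3 genes by p of at least 1 CPM stand for each other list, except that some genes are not reported here; Cxcl1, Calr and Pdia3 were named after their values were seen. Alternatives were DESeq2, limma-voom, median of ratios scaling, other filters, adjusted p under 0.01, a replicate block, no 24 h terms, leaving out 12 h or each library, and, chosen after seeing the data, 60 h against 18 h, the slope over 18 to 36 h and leaving out the 9 libraries numbered 2. Versions were edgeR 4.0.16, DESeq2 1.42.0 and limma 3.58.1 in R 4.3.3, and pandas 2.3.3 and matplotlib 3.10.9 in Python 3.11.15.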

Additional observations from a re-analysis of the deposited data

Results flagged for a closer look

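The slope over 36 to 60 h differed from that over 12 to 36 h for 28 of the 39 tested interferon-induced genes, by an edgeR quasi-likelihood test of the difference itself (3.22% of all genes tested). The count was 17 without the 9 libraries numbered 2 and 19 to 30 with any 1 library left out.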

How the results depend on the processing

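Lower levels at 60 h than at 12 h were called for 32 to 37 of the tested genes with DESeq2, limma-voom, median of ratios scaling, other filters, adjusted p under 0.01 and the replicate block, and for 19 at 60 h against 18 h. In fits without the 12 h libraries, of 37 tested genes, any change was called for 21 and a downward trend for 23; in the fit of all libraries the slope over 18 to 36 h was downward for 20. Without the 9 libraries numbered 2 the slope difference was called for 17 and the step to 18 h for 13. Among genes of at least 1 CPM the sensor median at 60 h against 12 h was -1.64, while that of the effectors is not given here. With the oligoadenylate synthetases as effectors the sensor median was -1.58. The slopes over 12 to 36 h were then -1.28 for sensors and -1.94 for effectors.

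With single libraries left out, the step to 18 h was called for 17 to 28 genes, and the medians over 36 to 60 h were 0.0082 to 0.125 for effectors and -0.14 to -0.037 for sensors. Irf1 ranged from -0.052 to 0.020 at 60 h against 12 h, changing sign without library 2 of 12 h (0.0017) or library 3 of 60 h, and was called in none of these.

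The labels do not say that replicate numbers mark a shared culture or batch. Same-numbered libraries of different times did deviate together: r was over 0.1 for 91 of 108 pairs (median 0.331, lowest -0.056), against 37 of 216 pairs of different numbers (median -0.19). On average 26 of 27 libraries correlated best with those of their own number, a hint from the data and not the design. Since not every pair passed 0.1, the block was kept as an alternative. With the replicate block 37 of the 39 were called lower at 60 h than at 12 h, Stat2 among them. A downward slope was called for 38 over 12 to 36 h and for 0 over 36 to 60 h, and a slope difference for 33. Over all genes, the block called 1729 instead of 832 lower at 60 h than at 12 h. A downward early slope was called for 2135 instead of 1072 genes, and any change for 5158 instead of 2345. Low counts limit Oasl1, Oas1a, Oas2, Rsad2 and Cmpk2: 3 counts are worth 0.112 to 0.197 CPM in a library.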
